A study of Mus musculus with 6 samples.

Results

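The genes described here are the autosomal, protein-coding histone-modifying enzymes of mouse pancreatic islets that carry the names Kdm, Kmt, Kat, Hdac, Setd or Sirt followed by a digit. The gene names, the biotype and a chromosome from 1 to 19 in the deposited table chose them, with no measured value, and 55 of the 54532 genes in the table met the rule. They comprise 8 Kmt, 8 Setd, 15 Kdm, 8 Kat, 9 Hdac and 7 Sirt genes. RNA-seq libraries were compared between 3 Bcas2 conditional knockout (cKO) samples and 3 control samples, which the labels give as wild type. All are pancreas islet samples labelled with the cell type beta cell, the islet cell that makes insulin. The Bcas2 cKO libraries carry the numbers 3, 4 and 5 in the table and the control libraries 1, 3 and 4, while the labels number the Bcas2 cKO samples 1, 3 and 4, so Bcas2 cKO library 5 was placed by its group only. The BCAS2 protein belongs to the Prp19 complex of the spliceosome, and the design text speaks of a knockdown of Bcas2 in these cells. The sources used here give neither the driver of the deletion, the deleted part of Bcas2, nor the age or sex of the mice. The labels do not say whether each library is a separate animal, so p-values measure the spread among these libraries, and that spread may be technical.

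Histone-modifying enzymes add or remove small groups on the tails of histones and thereby mark genes for activity or silence. Lysine methyltransferases (Kmt and most Setd genes) write methyl groups and the Kdm demethylases erase them. Acetyltransferases (Kat) write acetyl groups, and the zinc-dependent Hdac and the NAD-dependent Sirt deacetylases erase them. Several of the proteins also act outside chromatin: class IIa HDACs move between nucleus and cytoplasm under the control of calcium- and cAMP-regulated kinases, some sirtuins work in mitochondria, and SETD3 methylates actin.

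Across the 55 genes a few members were called as different between the groups and most were not. Of the 53 with a mean of at least 1 FPKM (expression per gene length, scaled between libraries by the authors in a way the sources do not give), 4 rose in Bcas2 cKO (Kdm6b, Hdac4, Sirt6 and Kmt2b), 2 fell (Hdac11 and Sirt4) and 47 did not pass the test. A gene rose or fell when limma's adjusted p, taken over all 13723 genes tested on log2(FPKM + 1), was under 0.05. The rises were 7.55% of the tested members, against 6.97% of all tested genes, and the falls were 3.77%, against 7.55% of all tested genes. Both directions together make 6 of 53 members, against a background of 14.5%. The share of members that rose is near that of all genes, so the share itself is no result about these enzymes. The median log2 fold change was -0.02 over the members and -0.03 over all tested genes, with 25 members above 0 and 28 below. The median size of the change, whatever its sign, was 0.13 for the members and 0.19 for all tested genes. Groups did not overlap in 17 of 53 members (32.1%), against 38.0% of all tested genes, and 14 members had an unadjusted p under 0.05, against 31.5% of all tested genes. For 40 of the 53, the 95% interval of the log2 fold change lay within 0.5 either way of 0. The plot of fold changes by class shows these members side by side.

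**Figure D1:**
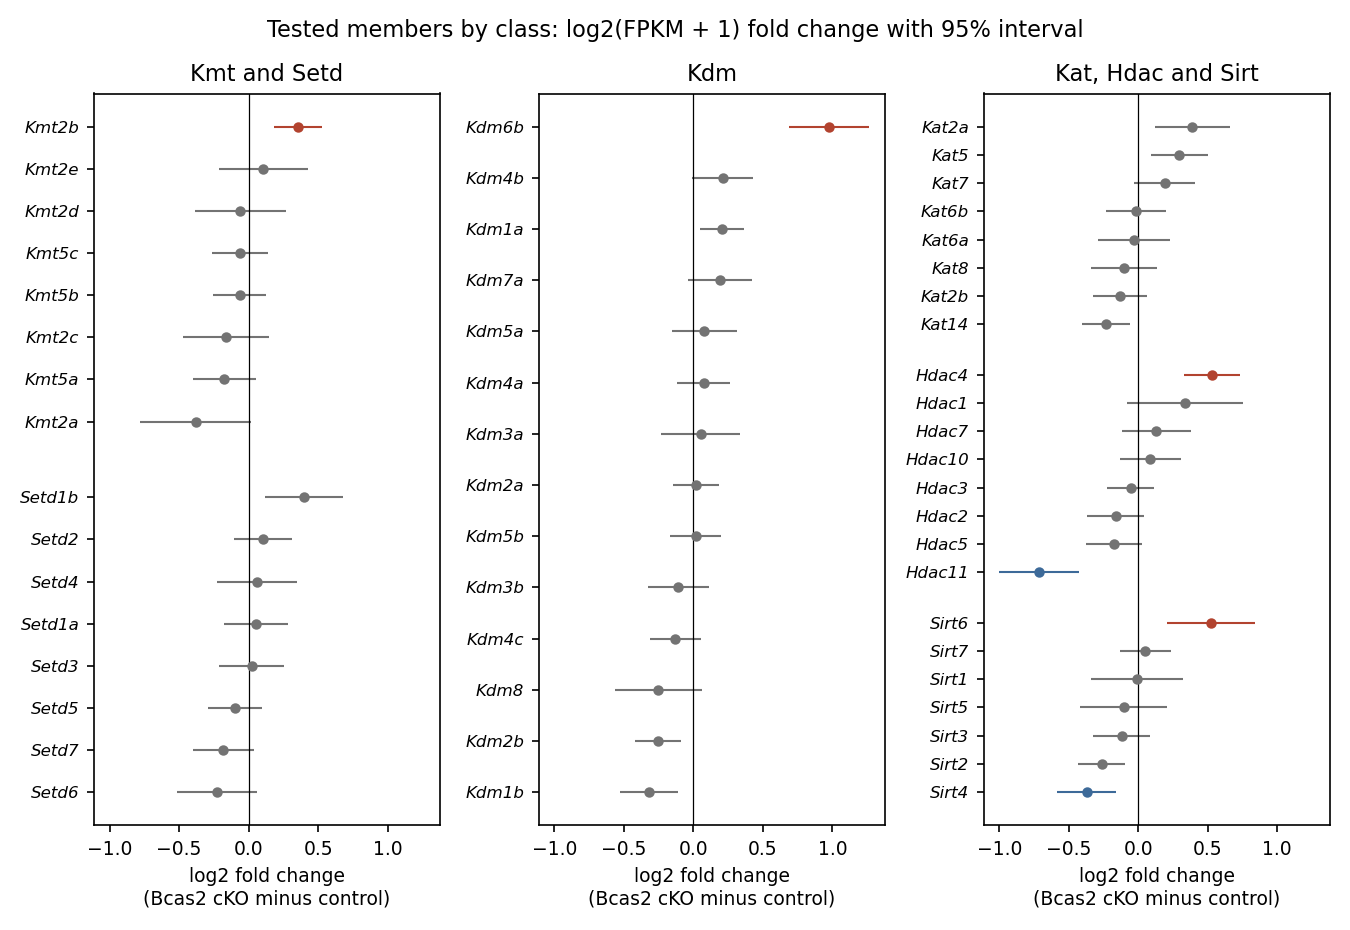
Log2 fold changes (Bcas2 cKO minus control, on log2(FPKM + 1)) of the 53 tested members, ordered within each class; bars are 95% intervals from limma, red marks members that rose and blue those that fell. Kdm6b (0.98) lies farthest to the right and Hdac11 (-0.71) farthest to the left, and most other intervals include 0.

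Reads on genes recovered from the FPKM came to 16351800 to 16904326 per Bcas2 cKO library and 15170439 to 15594871 per control library, and the tested members held 60 to 5922 reads in a library. The deposited values were 0.901 to 0.980 times those that gene length and library reads alone would give in Bcas2 cKO libraries, and 0.983 to 1.12 times in control libraries. With library reads alone, 1394 genes rose and 421 fell, beside 957 and 1036, and the median log2 fold change of all tested genes was 0.09 in place of -0.03. Fold changes below are those of the deposited scale. Bcas2 itself measured 8.76, 8.40 and 9.14 FPKM in Bcas2 cKO libraries 3, 4 and 5, against 10.3, 15.04 and 11.2 FPKM in control libraries 1, 3 and 4, with no overlap and a log2 fold change of -0.42 (SE 0.13, limma adjusted p 0.083). The insulin genes Ins1 and Ins2, which define beta cells, took 13.3 to 14.6% of the reads in Bcas2 cKO and 18.5 to 26.7% in control. Neither was called (limma adjusted p 0.44 for Ins1 and 0.38 for Ins2). Of 13 tested beta cell markers, 3 fell (Slc2a2, Slc30a8 and Ucn3) and 0 rose, with 4 log2 fold changes above 0 and 9 below. Groups did not overlap for 1 higher marker, Mafa (0.60, limma adjusted p 0.090), and for 6 lower markers. Acinar markers also moved with the groups, with 7 of 20 tested risen and none fallen, and summed to 15638 to 47338 FPKM in Bcas2 cKO and 5380 to 12540 FPKM in control. Immediate early and heat shock genes, which respond within minutes to stimulation or handling, summed to 5535 to 7001 FPKM in Bcas2 cKO and 887 to 2409 FPKM in control, with 19 of 22 tested risen. Among macrophage and lymphocyte markers, 6 of the 12 tested rose and none fell, with 11 log2 fold changes above 0 and 1 below. Those that rose were Cd68, Cd14, Adgre1, C1qb, C1qc and Tyrobp, none of them a lymphocyte marker. The lymphocyte marker Cd79a was the gene below 0, lower with no overlap but not called (-0.73, limma adjusted p 0.15). The 16 macrophage and lymphocyte markers in the table together summed to 136 to 164 FPKM in Bcas2 cKO and 109 to 134 FPKM in control. Of the other markers tested, 2 of 10 of alpha, delta and PP cells rose, 2 of 7 of ductal cells rose, 1 of 9 of endothelial cells fell, 1 of 5 of Schwann cells and neurons rose and 2 fell, and 0 of 8 of stellate cells and fibroblasts were called by limma (2 had an unadjusted p under 0.05). No marker of these lists was at 0 in every library. In bulk samples fewer cells of a type and less RNA per cell cannot be told apart, and the part of these differences in the results below was not tested.

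Among the methyltransferases of the Kmt class, 1 of 8 rose and none fell. The gene that rose was Kmt2b, whose product methylates lysine 4 of histone H3 (H3K4) at promoters and which lies on chromosome 7 from 30568858 to 30588726 (GRCm38, minus strand). It measured 17.1, 16.8 and 17.1 FPKM in Bcas2 cKO libraries 3, 4 and 5, against 13.6, 12.2 and 13.4 FPKM in control libraries 1, 3 and 4. All Bcas2 cKO values lay above all control values, and they spread less than the control values. Kmt2b rose by a log2 fold change of 0.36 (SE 0.07, limma adjusted p 0.022), a ratio of means of 1.30. This call was lost without Bcas2 cKO library 3, 4 or 5 (adjusted p 0.084, 0.065 and 0.074), without control library 4 (0.062), and when the libraries were rescaled without the hormone genes (0.20).

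Kmt2a, the founding H3K4 methyltransferase of the mixed-lineage leukaemia family, had the highest mean level of its class over the 6 libraries, although Kmt2b averaged more in Bcas2 cKO. It measured 16.4, 12.9 and 14.96 FPKM in Bcas2 cKO libraries 3, 4 and 5, against 19.8, 15.3 and 24.2 FPKM in control libraries 1, 3 and 4. The groups overlapped through control library 3, and the difference missed the threshold (log2 fold change -0.38, 95% interval -0.78 to 0.02, limma adjusted p 0.17). An antisense transcript annotated over Kmt2a, AC061963.1, was 2.34 ± 0.274 FPKM in Bcas2 cKO and 3.73 ± 1.11 FPKM in control (SD, n = 3 each, limma adjusted p 0.12). The enhancer H3K4 methyltransferases Kmt2c and Kmt2d did not pass the test either. Kmt2c was 7.40 ± 0.551 FPKM in Bcas2 cKO and 8.46 ± 1.56 FPKM in control, and Kmt2d was 13.6 ± 0.411 FPKM in Bcas2 cKO and 14.4 ± 2.81 FPKM in control. Among the controls, library 3 gave the lowest value of Kmt2a, Kmt2c, Kmt2d and Kmt2e (15.3, 6.84, 11.2 and 11.01 FPKM). Kmt2e, a chromatin-binding family member, was 14.7 ± 0.456 FPKM in Bcas2 cKO and 13.8 ± 2.72 FPKM in control and overlapped. Control library 3 also held the highest share of insulin reads, 26.7%, and the part of that share was not tested. Kmt5a, Kmt5b and Kmt5c, which methylate histone H4, had log2 fold changes from -0.17 to -0.06, none past the test.

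In the Setd class 0 of 8 members passed the test by limma (1 had an unadjusted p under 0.05, and voom called 1), and 7 of the 8 had a log2 fold change under 0.25 in size. The exception was Setd1b, the catalytic subunit of one of the COMPASS complexes for H3K4 methylation. It measured 9.58, 10.7 and 8.29 FPKM in Bcas2 cKO libraries 3, 4 and 5, against 7.36, 6.03 and 7.57 FPKM in control libraries 1, 3 and 4. The groups did not overlap, but the log2 fold change of 0.40 (SE 0.12) had a limma adjusted p of 0.068; it passed with a minimum mean of 5 FPKM and with voom on the recovered reads. Its close relative Setd1a was 4.96 ± 0.390 FPKM in Bcas2 cKO and 4.75 ± 0.510 FPKM in control (SD, n = 3 each), with a log2 fold change of 0.05 (95% interval -0.18 to 0.28).

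Setd3 had the highest mean level of all members over the 6 libraries, although Kdm6b averaged more in Bcas2 cKO. It measured 27.2, 29.2 and 29.5 FPKM in Bcas2 cKO libraries 3, 4 and 5, against 26.4, 32.1 and 26.4 FPKM in control libraries 1, 3 and 4. The 2 groups overlapped, with a log2 fold change of 0.02 and a 95% interval of -0.21 to 0.25. Setd5 measured 10.04, 9.65 and 9.45 FPKM in Bcas2 cKO, against 10.8, 9.47 and 11.2 FPKM in control, in the same order of libraries. Again the groups overlapped (log2 fold change -0.10, limma adjusted p 0.46). Scaled by library reads alone, the log2 fold change of Setd5 was 0.031 (limma adjusted p 0.89). The remaining Setd4, Setd6 and Setd7 also overlapped, with log2 fold changes of 0.06, -0.23 and -0.18. Setd2, which writes trimethylation of histone H3 lysine 36, was 9.31 ± 0.289 FPKM in Bcas2 cKO and 8.61 ± 0.913 FPKM in control, a difference that missed the threshold. Over the H3K4 methyltransferases Kmt2a, Kmt2b, Kmt2c, Kmt2d, Setd1a and Setd1b, the summed level was 65.8 to 69.0 FPKM in Bcas2 cKO and 55.8 to 76.0 FPKM in control. The sums overlapped between groups, and of the 6 log2 fold changes 3 were above 0 and 3 below.

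Among the demethylases, Kdm6b had the largest change of any member. KDM6B, also called JMJD3, removes methyl groups from lysine 27 of histone H3 (H3K27), the mark that Polycomb repressive complex PRC2 writes, and it is known in mouse macrophages as a gene induced by inflammatory signals. The gene lies on chromosome 11 from 69398508 to 69413675 (GRCm38, minus strand). It measured 26.8, 34.3 and 28.4 FPKM in Bcas2 cKO libraries 3, 4 and 5, against 16.3, 13.1 and 14.6 FPKM in control libraries 1, 3 and 4. Every Bcas2 cKO value was above every control value by a wide gap, and Bcas2 cKO library 4 was the highest of all. Kdm6b rose by 0.98 (SE 0.12, limma adjusted p 0.0049) on the log2(FPKM + 1) scale, a ratio of means of 2.04. It was the only member whose ratio of means reached 2 or fell to 0.5. Kdm6b stayed past the threshold whichever of the 6 libraries was left out (adjusted p 0.0080 to 0.024). The antisense transcript Kdm6bos, which overlaps 1188 bases of Kdm6b, measured 3.02, 3.31 and 2.48 FPKM in Bcas2 cKO, against 1.88, 2.20 and 1.13 FPKM in control. Its limma adjusted p was 0.082. The strand setting of the counting is not known, so reads from this pair cannot be told apart where the genes overlap. The sum of the joint macrophage and lymphocyte list and that of the immediate early and heat shock genes, given above, were higher in the same libraries. Their part in this rise was not tested.

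None of the other Kdm genes was called. Kdm1a, or LSD1, a flavin-dependent demethylase of H3K4, had the highest mean level of the class over the 6 libraries, although Kdm6b was higher in each Bcas2 cKO library. It measured 26.4, 26.7 and 26.2 FPKM in Bcas2 cKO libraries 3, 4 and 5, against 23.2, 22.8 and 22.3 FPKM in control libraries 1, 3 and 4. Its groups were tight and apart, yet the log2 fold change was only 0.21 (SE 0.07, limma adjusted p 0.082), and Kdm1a passed when scaled by library reads alone (0.34, adjusted p 0.043). Its paralog Kdm1b had lower values in Bcas2 cKO, with 2.59, 2.40 and 2.29 FPKM in Bcas2 cKO, against 3.03, 3.41 and 3.37 FPKM in control (log2 fold change -0.32, limma adjusted p 0.056). Kdm2b, which recruits a Polycomb complex to CpG islands, was 4.12, 4.45 and 4.23 FPKM in Bcas2 cKO, against 5.28, 5.30 and 5.29 FPKM in control (log2 fold change -0.26, limma adjusted p 0.052). The 3 control values of Kdm2b were nearly equal, and all lay above the Bcas2 cKO values. Both Kdm1b and Kdm2b passed with quantile normalization, with library weights and with voom. Kdm5a and Kdm5b, which erase H3K4 trimethylation, were 6.21 ± 0.430 and 4.60 ± 0.148 FPKM in Bcas2 cKO and 5.85 ± 0.720 and 4.55 ± 0.325 FPKM in control, in that order, and their groups overlapped. The remaining tested members Kdm2a, Kdm3a, Kdm3b, Kdm4a, Kdm4b, Kdm4c, Kdm7a and Kdm8 had log2 fold changes from -0.25 to 0.21, none past the test, and among them Kdm4b was higher and Kdm8 lower with no overlap. Kdm4d was under the filter, with 3 to 9 reads in a library. The summed level of the class was 147 to 152 FPKM in Bcas2 cKO and 125 to 132 FPKM in control, where Kdm6b itself averaged 29.8 ± 3.995 FPKM in Bcas2 cKO and 14.7 ± 1.65 FPKM in control (SD, n = 3 each).

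**Figure D2:**
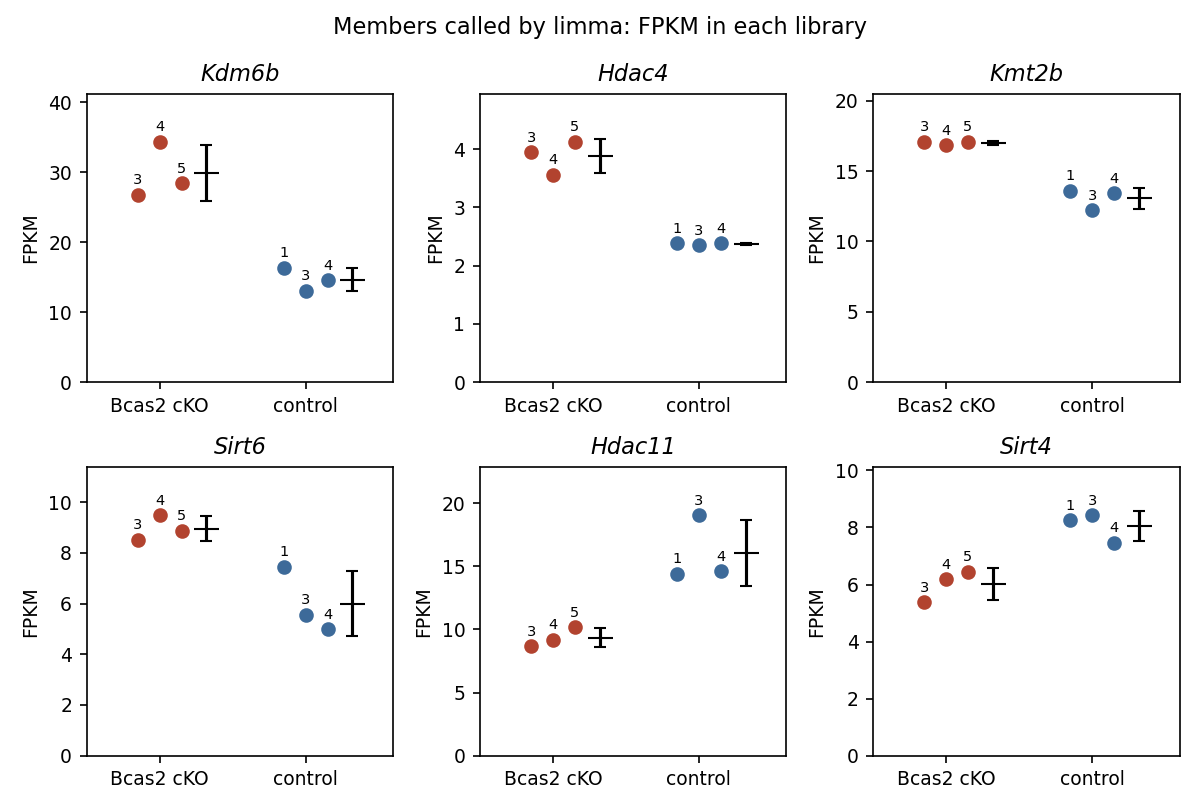
FPKM of the 6 members that passed the test in each library (points, numbered as in the table), with the mean and SD of 3 libraries beside them; Bcas2 cKO is red and control blue. Kdm6b, Hdac4, Kmt2b and Sirt6 lie higher in every Bcas2 cKO library, and Hdac11 and Sirt4 lie lower.

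In the Kat class 0 of 8 acetyltransferase genes passed the test by limma, and 3 had an unadjusted p under 0.05 (voom called 1, Kat2a). Kat5, or TIP60, the catalytic subunit of the NuA4 complex, measured 17.98, 21.4 and 19.9 FPKM in Bcas2 cKO libraries 3, 4 and 5, against 15.6, 16.6 and 15.4 FPKM in control libraries 1, 3 and 4. The groups did not overlap, and the log2 fold change of 0.30 (SE 0.09) had a limma adjusted p of 0.063. It passed with a minimum mean of 5 FPKM (0.049), with quantile normalization (0.030), after rescaling without hormone and acinar genes (0.041) and when scaled by library reads alone (0.017). Kat2a, or GCN5, the acetyltransferase of the SAGA complex, measured 13.8, 16.5 and 15.03 FPKM in Bcas2 cKO, against 12.3, 12.03 and 9.64 FPKM in control. Its groups were also apart, with a log2 fold change of 0.39 (SE 0.11, limma adjusted p 0.063), and it passed in 5 of the 19 alternatives.

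Kat2b, or PCAF, the paralog of Kat2a, measured 14.8, 12.7 and 13.7 FPKM in Bcas2 cKO libraries 3, 4 and 5, against 15.1, 14.5 and 15.9 FPKM in control libraries 1, 3 and 4. The groups overlapped, and the log2 fold change was -0.13 (95% interval -0.33 to 0.06), and 0.0011 when scaled by library reads alone. Kat14, an acetyltransferase of the ATAC complex, was 7.08 ± 0.440 FPKM in Bcas2 cKO and 8.48 ± 0.207 FPKM in control with no overlap (limma adjusted p 0.080). Kat7, known as HBO1, was 12.9 ± 0.177 FPKM in Bcas2 cKO and 11.2 ± 1.26 FPKM in control, also with no overlap and not past the test (0.21). Kat6a, Kat6b and Kat8 had log2 fold changes from -0.10 to -0.02.

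In the Hdac class 1 of 8 tested genes rose, Hdac4, and 1 fell, Hdac11. Hdac4 encodes a class IIa deacetylase with little catalytic activity of its own that represses MEF2 factors and leaves the nucleus when calcium-regulated kinases phosphorylate it. It lies on chromosome 1 from 91928779 to 92195699 (GRCm38, minus strand). Hdac11 encodes the sole class IV deacetylase, which removes long fatty acyl groups, and lies on chromosome 6 from 91156665 to 91174692 (plus strand). The RefSeq promoter windows of this pair (GRCm38.p6, 250 bases before to 50 after the annotated start) are shown because they belong to the largest called rise and the largest called fall with an entry in the RefSeq table. The Hdac4 window is chr1:92180292-92180591 on the minus strand and the Hdac11 window chr6:91156565-91156864 on the plus strand. Both annotated starts lie inside the gene interval of the deposited table. Capitals mark the letters of a CCAAT box (CCAAT) or a GC box (GGGCGG) on either strand.
Hdac4: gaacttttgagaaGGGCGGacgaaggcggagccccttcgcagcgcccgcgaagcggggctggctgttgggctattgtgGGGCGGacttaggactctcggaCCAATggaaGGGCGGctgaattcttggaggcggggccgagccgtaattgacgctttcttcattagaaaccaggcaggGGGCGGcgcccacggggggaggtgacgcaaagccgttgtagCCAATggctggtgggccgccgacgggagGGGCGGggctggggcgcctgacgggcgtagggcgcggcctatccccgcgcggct
Hdac11: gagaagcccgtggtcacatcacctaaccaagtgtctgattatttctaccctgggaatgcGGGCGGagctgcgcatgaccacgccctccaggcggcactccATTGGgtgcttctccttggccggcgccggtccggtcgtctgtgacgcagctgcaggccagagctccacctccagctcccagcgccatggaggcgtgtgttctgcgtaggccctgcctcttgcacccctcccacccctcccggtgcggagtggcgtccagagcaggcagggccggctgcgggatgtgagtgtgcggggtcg
The Hdac4 window holds 2 CCAAT boxes and 5 GC boxes, and the Hdac11 window holds 1 of each. Neither holds the letters of the cAMP response element (TGACGTCA) or of an AP-1 site (TGANTCA), and this says only that those letters are not in these windows. RefSeq windows were found for 43 of the 55 members, 63 windows in all. A GC box was in 63.5% of them and in 35.7% of all 32851 windows, a CCAAT box in 39.7% and 37.4%, an AP-1 match in 11.1% and 7.81%, and a cAMP response element in 0 of 63 and 1.79%. Of the other called members, Sirt4 had 1 window with none of the 4 motifs and Sirt6 had 2 windows with 1 GC box between them. These matches are a description and bear on no test.

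Hdac4 measured 3.94, 3.56 and 4.13 FPKM in Bcas2 cKO libraries 3, 4 and 5, against 2.38, 2.35 and 2.38 FPKM in control libraries 1, 3 and 4. The control values were almost identical, and all Bcas2 cKO values were higher. Hdac4 rose by 0.53 (SE 0.08, limma adjusted p 0.011) on the log2 scale, a ratio of means of 1.63, and it was called without each of the 6 libraries in turn (adjusted p 0.025 to 0.048). Hdac11 measured 8.68, 9.18 and 10.2 FPKM in Bcas2 cKO, against 14.4, 19.1 and 14.6 FPKM in control, in the same order of libraries. All Bcas2 cKO values were lower, and control library 3 was the highest. Hdac11 fell by 0.71 (SE 0.12, limma adjusted p 0.013), a ratio of means of 0.582, and its call was lost without Bcas2 cKO library 3 (adjusted p 0.051). The antisense transcript Gm14573 over Hdac11 was 0.791 ± 0.494 FPKM in Bcas2 cKO and 0.245 ± 0.151 FPKM in control, on 1 to 10 reads a library.

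None of the other class IIa genes was called. Hdac5, the most abundant of the class, measured 20.8, 21.1 and 22.8 FPKM in Bcas2 cKO libraries 3, 4 and 5, against 22.4, 26.3 and 24.7 FPKM in control libraries 1, 3 and 4. The groups overlapped, and the log2 fold change was -0.17 (95% interval -0.38 to 0.03). Hdac7 was 7.30 ± 0.733 FPKM in Bcas2 cKO and 6.58 ± 0.729 FPKM in control, a difference within the spread (limma adjusted p 0.43). Hdac9 was under the filter of a mean of 1 FPKM, with 0.560, 0.4998 and 0.455 FPKM in Bcas2 cKO, against 0.649, 0.854 and 0.706 FPKM in control. Its values did not overlap on 115 to 169 reads, and without the filter its limma adjusted p was 0.37. The summed level of the 4 class IIa genes was 31.6 to 34.96 FPKM in Bcas2 cKO and 32.9 to 35.9 FPKM in control.

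The class I genes Hdac1, Hdac2 and Hdac3, the catalytic subunits of the large nuclear corepressor complexes, did not pass the test. Hdac1 measured 12.9, 13.6 and 14.1 FPKM in Bcas2 cKO libraries 3, 4 and 5, against 14.5, 9.20 and 8.69 FPKM in control libraries 1, 3 and 4. Control library 1 stood above the other 2 controls and above every Bcas2 cKO library, which gave Hdac1 the largest spread within groups of all members. Its log2 fold change was 0.33 (SE 0.18, limma adjusted p 0.24), and Hdac1 passed the test only in the fit without control library 1. Hdac2 was 14.5 ± 0.615 FPKM in Bcas2 cKO and 16.4 ± 1.54 FPKM in control (log2 fold change -0.16). Hdac3 was 11.97 ± 0.298 FPKM in Bcas2 cKO and 12.5 ± 0.590 FPKM in control (log2 fold change -0.05, 95% interval -0.22 to 0.11). Hdac10, a cytoplasmic polyamine deacetylase, was 7.45 ± 0.501 FPKM in Bcas2 cKO and 6.97 ± 0.687 FPKM in control.

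The sirtuins, which couple deacylation to the supply of NAD, gave a rise and a fall. Sirt6, a nuclear deacetylase of histone H3 that restrains glycolytic genes and acts in DNA repair, lies on chromosome 10 from 81621785 to 81627797 (GRCm38, minus strand). It measured 8.51, 9.49 and 8.87 FPKM in Bcas2 cKO libraries 3, 4 and 5, against 7.45, 5.56 and 4.99 FPKM in control libraries 1, 3 and 4. All Bcas2 cKO values were higher, and control library 1 came nearest to them. Sirt6 rose by 0.52 (SE 0.13, limma adjusted p 0.044), a ratio of means of 1.49. The call held only without control library 1 (0.011) and was lost without any other single library, with adjusted p 0.098, 0.12 and 0.11 without Bcas2 cKO libraries 3, 4 and 5 and 0.11 without control library 3 or 4. It was also lost with no filter on low genes (0.11) and with the variance trend of limma left out (0.054). Rescaling without the hormone genes (0.099) or without hormone and acinar genes (0.055) lost the call of Sirt6 too.

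Sirt4, a mitochondrial sirtuin that restrains amino acid-stimulated insulin secretion in mouse beta cells, lies on chromosome 5 from 115478010 to 115484725 (GRCm38, minus strand). It measured 5.38, 6.18 and 6.46 FPKM in Bcas2 cKO libraries 3, 4 and 5, against 8.26, 8.43 and 7.47 FPKM in control libraries 1, 3 and 4. All Bcas2 cKO values were lower. Sirt4 fell by 0.37 (SE 0.09, limma adjusted p 0.037), a ratio of means of 0.746. Its call was lost without each of the 6 libraries, with adjusted p 0.12, 0.088 and 0.067 without Bcas2 cKO libraries 3, 4 and 5 and 0.075, 0.094 and 0.066 without control libraries 1, 3 and 4. It was also lost with no filter on low genes (0.085) and when scaled by library reads alone (0.12).

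Of the other mitochondrial sirtuins, Sirt3 was 2.86 ± 0.166 FPKM in Bcas2 cKO and 3.20 ± 0.215 FPKM in control, and Sirt5 was 1.27 ± 0.124 FPKM in Bcas2 cKO and 1.44 ± 0.259 FPKM in control. Neither passed the test. The summed level of Sirt3, Sirt4 and Sirt5 was 9.39 to 10.9 FPKM in Bcas2 cKO and 12.2 to 13.3 FPKM in control, with no overlap. Sirt4 carried that gap, since Sirt3 and Sirt5 alone summed to 3.91 to 4.46 FPKM in Bcas2 cKO and 4.14 to 5.09 FPKM in control and overlapped. Sirt2, a mainly cytoplasmic tubulin and histone deacetylase and the most abundant sirtuin, measured 12.1, 13.1 and 12.3 FPKM in Bcas2 cKO libraries 3, 4 and 5, against 14.8, 15.8 and 15.02 FPKM in control libraries 1, 3 and 4. Its groups were apart, and it missed the threshold narrowly (log2 fold change -0.26, SE 0.07, limma adjusted p 0.052). Sirt1, the nuclear sirtuin best known for its role in metabolism, was 5.70 ± 0.155 FPKM in Bcas2 cKO and 5.84 ± 1.34 FPKM in control, with overlap and a log2 fold change of -0.01 (95% interval -0.34 to 0.32). Sirt7, the nucleolar sirtuin, was 10.02 ± 0.281 FPKM in Bcas2 cKO and 9.65 ± 0.7001 FPKM in control, also with overlap.

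**Figure D3:**
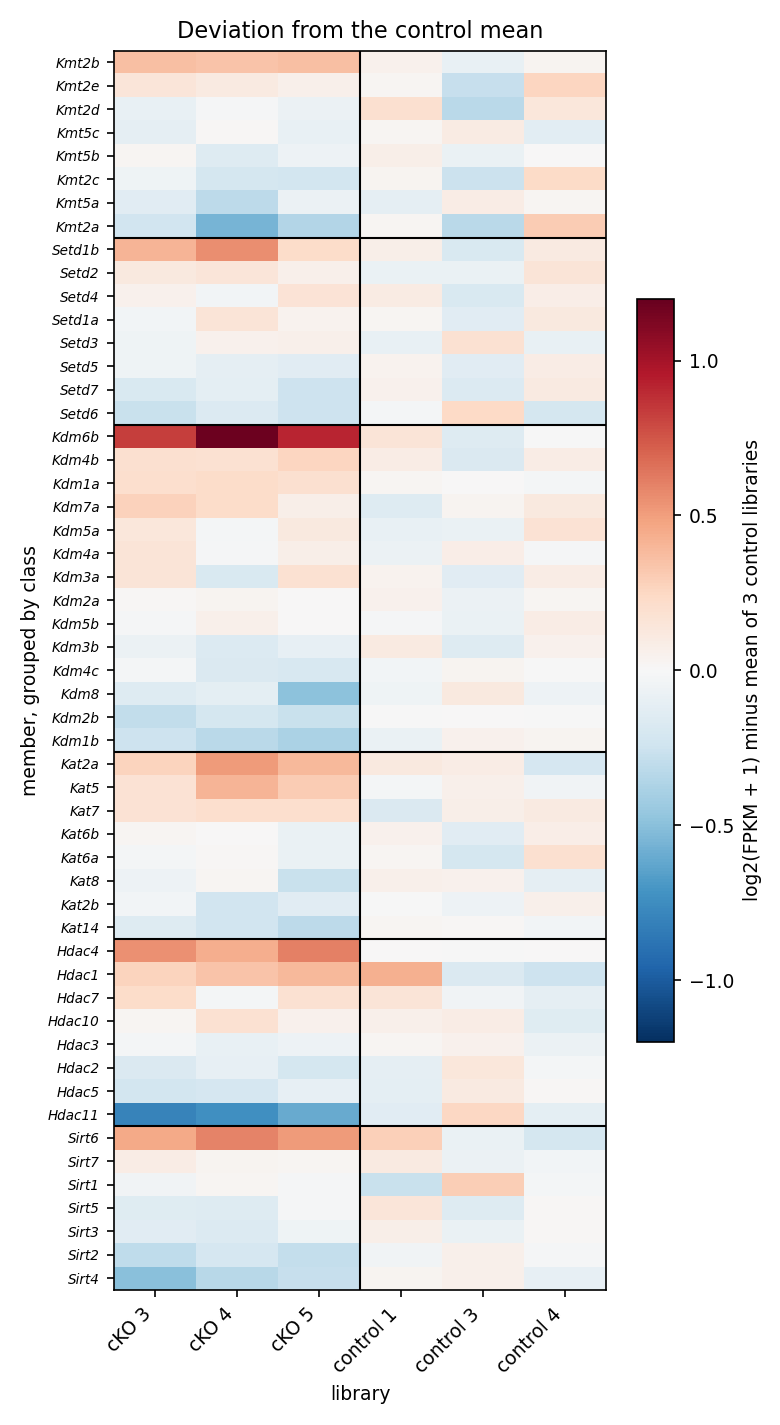
Deviation of each tested member in each library from the mean of the 3 control libraries, on log2(FPKM + 1); columns are the Bcas2 cKO libraries 3, 4 and 5 and then the control libraries 1, 3 and 4, and lines separate the Kmt, Setd, Kdm, Kat, Hdac and Sirt classes. Kdm6b and Hdac11 stand out in all 3 Bcas2 cKO libraries, whereas Hdac1 is high in control library 1 as well.

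Class by class, the medians lay close together. The median log2 fold change of the tested members was -0.06 for Kmt (1 of 8 rose), 0.04 for Setd (0 of 8 called), 0.04 for Kdm (1 of 14 rose), -0.02 for Kat (0 of 8 called), 0.02 for Hdac (1 of 8 rose and 1 fell) and -0.10 for Sirt (1 of 7 rose and 1 fell). After rescaling without the hormone genes the Kdm and Setd medians were below 0, at -0.066 and -0.069, while the median of all tested genes was -0.12. Scaled by library reads alone, the Kmt and Kat medians were above 0, at 0.066 and 0.097, while the median of all tested genes was 0.09. The summed level of all 55 genes was 551 to 560 FPKM in Bcas2 cKO (mean 554) and 533 to 546 FPKM in control (mean 541). Kdm6b alone averaged 29.8 FPKM in Bcas2 cKO and 14.7 FPKM in control, a larger gap than that between the mean sums. The 55 genes made up 0.429 to 0.474% of the recovered reads in Bcas2 cKO and 0.352 to 0.433% in control. Spearman's rho between genomic span and log2 fold change was -0.02 across the 53 tested members and -0.09 across all 13723 tested genes, a description across genes that share libraries and depth. An overlapping gene was annotated for 32 of the 55 members, on the opposite strand for 27, so their totals may include reads of the partner.

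Related genes from lists of the same pathways were read from the same fit. Of 184 tested genes on 11 lists, 16 rose (8.70%) and 4 fell (2.17%), beside 6.97% and 7.55% of all tested genes. On the X chromosome, 2 of 4 namesakes outside the rule were called in opposite directions. Kdm5c, an H3K4 demethylase, measured 24.3, 25.5 and 25.2 FPKM in Bcas2 cKO, against 18.3, 16.8 and 18.2 FPKM in control, and rose by 0.47 (SE 0.07, limma adjusted p 0.0091). Hdac6, a cytoplasmic tubulin deacetylase, measured 28.2, 30.5 and 30.5 FPKM in Bcas2 cKO, against 43.4, 38.1 and 43.1 FPKM in control, and fell by 0.47 (SE 0.08, limma adjusted p 0.016). The call of Hdac6 was lost without Bcas2 cKO library 3 (0.067) and without control library 4 (0.061). Kdm6a, the X-linked namesake of Kdm6b, was not called, and its groups overlapped. It measured 6.81, 6.38 and 6.54 FPKM in Bcas2 cKO, against 5.42, 5.16 and 6.43 FPKM in control. Hdac8 was not called either.

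Around the H3K27 demethylase gene Kdm6b, 2 of 6 tested PRC2 subunits rose and none fell, with a list median of 0.21. Jarid2, which helps to recruit PRC2, measured 6.91, 8.72 and 7.56 FPKM in Bcas2 cKO libraries 3, 4 and 5, against 3.73, 3.49 and 4.04 FPKM in control libraries 1, 3 and 4, and rose by 0.87 (SE 0.10, limma adjusted p 0.0037). Mtf2, a Polycomb-like subunit that binds CpG islands, measured 8.43, 7.24 and 7.62 FPKM in Bcas2 cKO, against 3.46, 3.80 and 4.16 FPKM in control, and rose by 0.87 (SE 0.09, limma adjusted p 0.0029). Both were called without each library in turn. The catalytic subunit gene Ezh2 was under the filter, with 0.754 ± 0.057 FPKM in Bcas2 cKO and 0.744 ± 0.124 FPKM in control, and Ezh1 was 10.2 ± 0.317 FPKM in Bcas2 cKO and 11.4 ± 0.387 FPKM in control (limma adjusted p 0.19). Among 17 methyltransferases with other names, Dot1l, which methylates lysine 79 of histone H3, was the only call (0.29, limma adjusted p 0.044), and it was lost without each library (0.054 to 0.12).

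Among 19 tested kinases and partners of the class IIa HDACs, 3 rose and 1 fell. Sik1, an inducible kinase that phosphorylates these HDACs, measured 25.3, 42.6 and 34.7 FPKM in Bcas2 cKO libraries 3, 4 and 5, against 4.65, 9.23 and 6.82 FPKM in control libraries 1, 3 and 4. It rose by 2.17 (SE 0.25, limma adjusted p 0.0040), the largest change on these lists, with a wide gap between the groups. Sik1 is itself a cAMP- and activity-responsive gene. The immediate early genes given above were higher in the same libraries, and their part in the rise of Sik1 was not tested. Prkd1, a protein kinase D gene, rose by 0.87 (18.2 ± 1.42 FPKM in Bcas2 cKO and 9.54 ± 1.45 FPKM in control) and Camk2g, a calcium/calmodulin kinase gene, by 0.66 (7.68 ± 0.488 FPKM in Bcas2 cKO and 4.53 ± 0.660 FPKM in control). All 3 were called without each library in turn.

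The class I HDACs and acetyltransferases work inside large complexes. Of 44 HDAC corepressor subunits 4 rose and 1 fell, with a median of 0.07. Gps2, of the NCoR complex that holds HDAC3, was 40.6 ± 2.07 FPKM in Bcas2 cKO and 21.8 ± 2.73 FPKM in control and rose by 0.88 (limma adjusted p 0.0040). In the NuRD complex, Mta1 was 38.5 ± 2.76 FPKM in Bcas2 cKO and 25.8 ± 1.15 FPKM in control and rose by 0.56, whereas the remodeller Chd3 was 22.9 ± 0.194 FPKM in Bcas2 cKO and 34.6 ± 1.10 FPKM in control and fell by 0.58. All 3 were called without each library in turn. Of 47 acetyltransferase complex subunits 3 rose and 1 fell, with a median of 0.00. Trrap, a scaffold of the NuA4 and SAGA complexes, rose by 0.56, Brd8 of NuA4 rose by 0.31 and Jade2 of the KAT7 complex fell by 0.38. The call of Trrap was lost without Bcas2 cKO library 3, 4 or 5 (adjusted p 0.060, 0.055 and 0.065). That of Jade2 was lost without Bcas2 cKO library 3 or 4 or control library 4 (0.075, 0.064 and 0.066), and that of Brd8 without each library (0.051 to 0.11).

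The remaining lists held few calls. Among 10 acetyltransferases with other names, Crebbp, a coactivator of CREB, was the only call (0.36, limma adjusted p 0.037). It stayed past the threshold only without control library 1 (0.035) and was lost without each other library (0.076 to 0.11). Its paralog Ep300 was 10.4 ± 0.340 FPKM in Bcas2 cKO and 10.3 ± 1.24 FPKM in control. Of 8 genes of NAD supply, Naprt, which makes NAD from nicotinic acid, was the only call, a rise of 0.64 that missed the threshold when Bcas2 cKO library 3 was left out (adjusted p 0.053). Nampt, which recycles nicotinamide for the sirtuins, was 6.73 ± 0.696 FPKM in Bcas2 cKO and 8.11 ± 0.498 FPKM in control (limma adjusted p 0.13). Neither 14 COMPASS subunits, 8 arginine methyltransferases nor 7 demethylases with other names gave a call by limma, while 2, 0 and 1 of them had an unadjusted p under 0.05. The most abundant COMPASS subunit, Cxxc1, was 25.2 ± 1.28 FPKM in Bcas2 cKO and 24.8 ± 1.52 FPKM in control. The arginine methyltransferase Prmt1 was 17.6 ± 2.15 FPKM in Bcas2 cKO and 15.6 ± 1.65 FPKM in control, and the demethylase Phf2 was 20.3 ± 0.471 FPKM in Bcas2 cKO and 22.3 ± 1.19 FPKM in control.

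**Figure D4:**
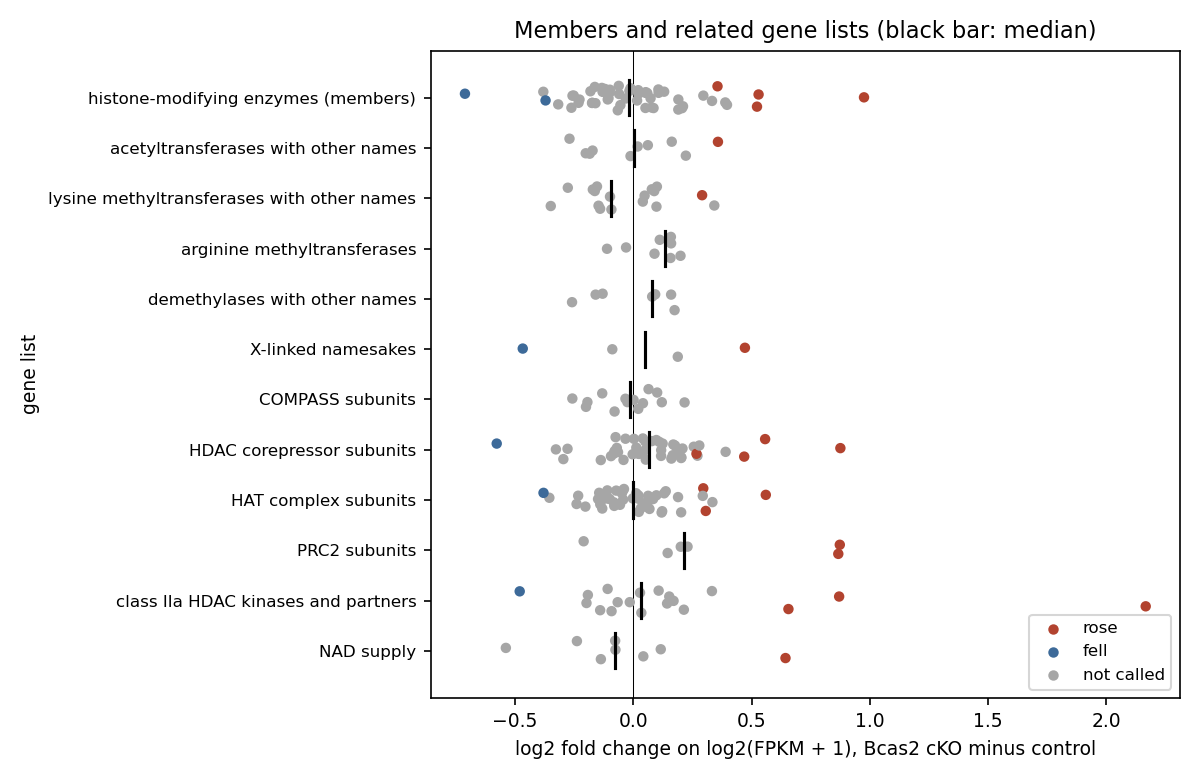
Log2 fold changes (Bcas2 cKO minus control, on log2(FPKM + 1)) of the 53 tested members and of the tested genes on 11 related lists; each point is a gene, red rose, blue fell, grey did not pass the test, and black bars are medians. Sik1 (2.17) is the rightmost point, and the medians of all lists lie between -0.09 and 0.21.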

How the data were processed

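RNA of islet samples was extracted with Trizol and sequenced from SMARTer mRNA-seq libraries, per the labels' protocols. The authors deposited FPKM per gene, 1 column per library, with gene coordinates and lengths, per the file headers. The build was GRCm38 (mm10), per the submitters' processing notes; no source used here names the aligner, the counter or the strand setting. Each value times its gene's length is a whole number of equal steps in that library (100% of values above 0, within 0.01 of a read), and counting these steps gave the reads behind a value. The step differs from that of library reads alone, so the deposited FPKM carry a scaling between libraries whose method is not stated. Median-of-ratios factors of the deposited values were 1 for every library, as values already scaled in that way would give.

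A linear model of limma 3.58.1 (R 4.3.3, eBayes with trend) compared the groups on log2(FPKM + 1) for genes averaging 1 FPKM or more, with Benjamini-Hochberg adjustment over all tested genes, after a check of the fit on simulated data. The pseudocount of 1 understates the change of low genes. Members, lists and tests were chosen with earlier results of these data known. Members given by library are those called, any with no overlap and a change of at least 0.5 that missed the threshold, and the most abundant of a class up to 2. The values by library of Setd1b, Kdm1b, Kdm2b, Kat2a, Hdac1, Hdac5, Hdac9 and Sirt2, and the levels of Ezh1, Ezh2, Ep300 and Nampt, were added after their values were seen. In each related list up to 3 called genes of largest change are named, or the most abundant. Alternatives changed the pseudocount (0.1), filter, scaling, weights, variance model, kind of value (voom on recovered reads), pairing, and left out each library; scaling by library reads alone was added after seeing the data. Promoter windows are from RefSeq (GRCm38.p6). Python 3.11.15 made the tables (pandas 2.3.3, numpy 2.4.6, scipy 1.17.1) and the figures (matplotlib 3.10.9).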

Additional observations from a re-analysis of the deposited data

How the results depend on the processing

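Of the 19 alternatives, median-of-ratios scaling tested nothing, since its factors were 1 for every library of the deposited values. Kdm6b was called in all 19, Hdac4 in 17 of the 18 that tested it, Hdac11 in 17 of 19, Kmt2b in 13, Sirt4 in 10 and Sirt6 in 9; these counts include median-of-ratios scaling. The number of all genes called (1993) was 1144 with no filter and 538 with the replicate block, and 878 to 1950 when a library was left out. Members that rose (4) numbered 2 after rescaling without the hormone genes, 1 with the replicate block and 2 to 5 when a library was left out. Members that fell (2) numbered 1 with no filter, 5 with quantile normalization, library weights or voom, 0 with the replicate block and 0 to 1 when a library was left out. Rescaling without the hormone genes gave 609 rises and 1251 falls over all genes, against 957 and 1036, and moved the class medians of Kdm to -0.066, Kat to -0.12 and Setd to -0.069. Scaling by library reads alone, added after seeing the data, gave 7 members that rose and 1 that fell, and class medians of 0.163 for Kdm, 0.066 for Kmt, 0.097 for Kat and 0.157 for Setd; Kat2b (0.0011) and Setd5 (0.031) changed sign. The Setd median was -0.039 over genes of at least 5 FPKM and ranged from -0.023 to 0.061 when a library was left out. The Kat median was 0.027 with the replicate block and ranged from -0.080 to 0.043 when a library was left out. Bcas2 passed the test after rescaling without the hormone genes (-0.52, limma adjusted p 0.035), with voom (-0.44, 0.045) and without control library 1 (-0.52, 0.049), with a range of -0.52 to -0.27 when a library was left out. Setd3 changed sign after rescaling without the hormone genes (-0.093) and with the replicate block (-0.044), and ranged from -0.024 to 0.11 when a library was left out. The causes of these differences were not tested.

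The numbers 3 and 4 are shared by both groups of columns, but the deviations of same-numbered libraries correlated at -0.15 and 0.05 over genes, so the numbers were not treated as pairs and the replicate block is given only here. Control library 1 and Bcas2 cKO library 5 share their number with no other library. The group difference under the block therefore rests on libraries 3 and 4 of each group alone. Its lower counts of calls cannot be read as an effect of pairing all the libraries. Under the block Kdm6b kept its call (limma adjusted p 0.028). The smallest change called among the members was 0.36 on the log2 scale (Kmt2b).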
